A study of Mus musculus with 9 samples.

Results

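The proteasome genes of mouse liver were taken as all symbols of the expression table that began with Psma, Psmb, Psmc, Psmd, Psme, Psmf or Psmg followed by a number, and that reached 1 or more in 3 or more of the 9 libraries. Of 51 matching symbols, 47 passed this filter, among 10388 genes tested in all. They comprised 7 genes of the alpha ring, 10 of the beta ring, 17 of the regulatory particle, 7 of assembly chaperones, 4 activators, 1 inhibitor and Psme3ip1, which encodes a protein that binds the activator Psme3 and is not a subunit.

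The proteasome degrades proteins tagged with ubiquitin. Its core particle is a barrel of alpha rings, which gate the entry, around beta rings, in which Psmb5, Psmb6 and Psmb7 cut peptide bonds. Interferon-exposed and immune cells replace these catalytic subunits by Psmb8, Psmb9 and Psmb10, in that order, which favours peptides for antigen presentation. A regulatory particle with an ATPase base and a lid binds, deubiquitinates and unfolds substrates. In liver, as in other tissues, transcription of constitutive subunits is adjusted by the factor Nfe2l1, and that of Psmb8, Psmb9 and Psmb10 by interferon signalling.

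RNA sequencing covered 9 liver libraries, 3 per group, from C57BL/6J mice gavaged for 8 weeks. Control mice received distilled water, DEHP mice received 1500 mg/kg/d di(2-ethylhexyl) phthalate, a plasticizer, in corn oil, and Treatment mice received that dose with 70 mg/kg green tea polyphenols (GTP). Groups with corn oil only or GTP only were not analysed here, and effects of the oil and of the phthalate cannot be told apart. The labels state neither age nor sex. They also do not state that libraries of 1 group were separate mice, so a p-value covers the spread between these libraries, which may be technical.

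Values were normalized expression signals per gene, whose scaling the labels do not state, and summed to between 789076 and 863300 per library. All 10 hepatocyte markers were measured. They summed to 84677.9 to 89784.5 in Control, 70474.9 to 71968 in DEHP and 67997 to 79387.4 in Treatment libraries. Under DEHP 2 of the 10, Alb and Serpina1a, fell and 0 rose (limma adjusted p below 0.05), beside 3.91% and 21.6% of all genes. Control replicates 1 and 2 stood apart by fat tissue transcripts: 10 adipocyte markers summed to 1032 and 1603 there, against 11.9 in Control replicate 3 and at most 368.2 elsewhere. The major urinary protein (Mup) genes held 16.1 to 20.3% of the Control totals, 2.37 to 8.49% of the DEHP totals and 6.53 to 11.6% of the Treatment totals. Values of every other gene may depend on this share, but with the scaling not stated this is not known. Counts of members or their median fold change are therefore also given without those 2 Control libraries and without the Mup genes. Calls of named genes that these settings ended are pointed out.

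The first comparison set DEHP mice against Control mice. Most of the proteasome genes were higher: 38 of 47 rose and 0 fell. Over all genes tested, 21.6% rose and 3.91% fell (limma, Benjamini-Hochberg adjusted p below 0.05). The median log2 fold change, on the log2(value + 1) scale, was 0.48 over the 47 genes and 0.12 over all genes. The log2 scale adds 1 to each value and understates changes of low genes. Libraries of the groups did not overlap for 39 members, all higher, where 33.8% of all genes were higher and 7.65% lower without overlap. The 9 members that did not pass were the inducible catalytic subunits Psmb8, Psmb9 and Psmb10, the activators Psme3 and Psme4, and the chaperones Psmd9, Psmd10, Psmg2 and Psmg4. In bulk liver, fewer cells of a type and less RNA per cell cannot be told apart.

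**Figure D1:**
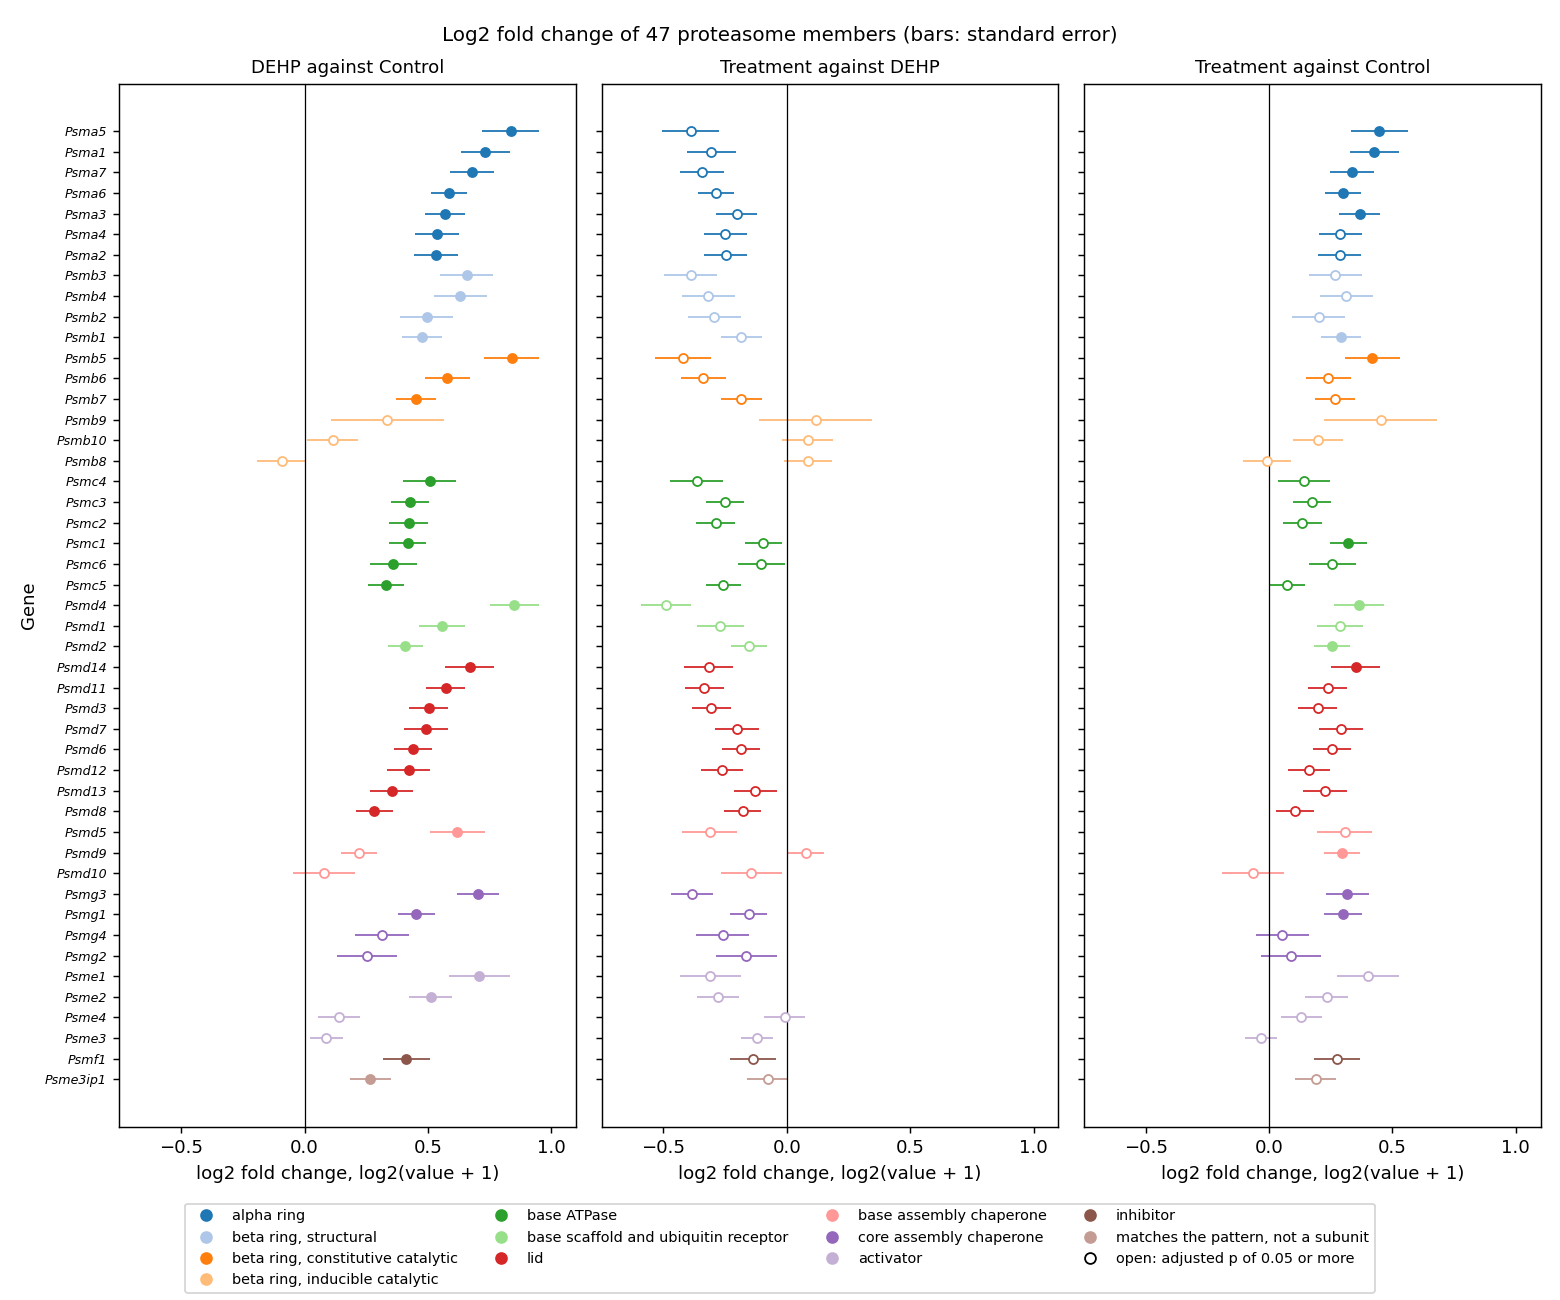
Log2 fold change of each of the 47 genes on the log2(value + 1) scale (points) with its standard error (bars), coloured by role, in the 3 comparisons; filled points had an adjusted p below 0.05. Under DEHP 38 points are filled and to the right of 0, in Treatment against DEHP none is filled, and in Treatment against Control 14 are.

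With Control replicate 3 as the lone control, 24 members rose and 0 fell, with 6.52% higher and 0.77% lower over all genes. There the lone library is taken to vary as much as the other groups do. The size of the shift also depended on scaling. With totals set equal without the Mup genes, 23 members rose and 1 fell, while over all genes 802 rose and 1000 fell. Quantile normalization left 18 higher and 0 lower, with 922 higher and 833 lower over all genes, and centring on the median gene left 34 higher and 0 lower, with 1271 higher and 736 lower over all genes. The median over members lay 0.36 above that over all genes in the deposited scaling, 0.32 above it without the Mup genes and 0.23 above it after quantile normalization. Of the named members described below, Psmb5, Psmd4, Psma6, Psma7, Psmd1, Psmd5, Psmd11, Psmd14 and Psmg3 were called higher in all 17 other settings run. Psmb6, Psmb7, Psmc1, Psmc3 and Psmf1 lost their call with quantile normalization, and Psmb7 and Psmf1 also after centring on coding length.

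Among the constitutive catalytic subunits, Psmb5, which gives the chymotrypsin-like activity, had one of the largest rises of the set. Its values were 103.18, 101.79 and 112.42 in Control, 196.19, 170.66 and 204.84 in DEHP, and 122.49, 163.52 and 141.9 in Treatment libraries. Every DEHP library was above every other library. The mean went from 106 ± 5.78 to 191 ± 17.8 (SD, n = 3), 1.80-fold, with a log2 fold change of 0.84 (SE 0.11, limma adjusted p = 0.000896).

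Psmb6, the caspase-like subunit, was at 121.44, 114.97 and 130.28 in Control, at 186.41, 178 and 183.94 in DEHP, and at 131.76, 163.94 and 139.14 in Treatment libraries. The 3 DEHP libraries were again the highest, and the lowest Treatment library lay just above the highest Control library. Psmb6 rose 1.50-fold (log2 fold change 0.58, SE 0.092), a call lost with Control replicate 3 as the lone control (limma adjusted p = 0.0758). Psmb7, the trypsin-like subunit, was at 150.55, 139.48 and 133.14 in Control, at 187.6, 202.66 and 189.23 in DEHP, and at 162.34, 184.87 and 163.05 in Treatment libraries. It rose 1.37-fold (log2 fold change 0.45, SE 0.082), and without the Mup genes in the scaling its limma adjusted p was 0.0603.

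None of the 3 inducible subunits passed the test. Psmb8, which takes the place of Psmb5, was at 18.66, 19.53 and 19.02 in Control, at 15.4, 18.85 and 19.45 in DEHP, and at 17.16, 19.54 and 20.31 in Treatment libraries. The 3 groups overlapped, and DEHP replicate 1 was the lowest of all. The log2 fold change under DEHP was -0.093 (SE 0.098, limma adjusted p = 0.528). With the Mup genes left out of the scaling it was -0.30, with an adjusted p of 0.0474, and Psmb8 was the member called lower there.

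Psmb9, the counterpart of Psmb6, was at 15.63, 12.43 and 13.36 in Control, at 11.71, 18.79 and 24.65 in DEHP, and at 16.61, 19.53 and 21.76 in Treatment libraries. DEHP replicate 1 held the lowest value of all 9 libraries and DEHP replicate 3 the highest, so DEHP overlapped with both other groups. Its log2 fold change was 0.34 (SE 0.23, limma adjusted p = 0.323), and without DEHP replicate 1 it was 0.61 (SE 0.15, adjusted p = 0.0192). Psmb10, the counterpart of Psmb7, was at 25.44, 24.27 and 26.75 in Control, at 24.95, 29.92 and 28.31 in DEHP, and at 25.28, 32.25 and 31.06 in Treatment libraries. DEHP overlapped with both other groups here too. Its log2 fold change of 0.11 (SE 0.10, limma adjusted p = 0.456) turned below 0 with quantile normalization, without the Mup genes and after centring on coding length.

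**Figure D2:**
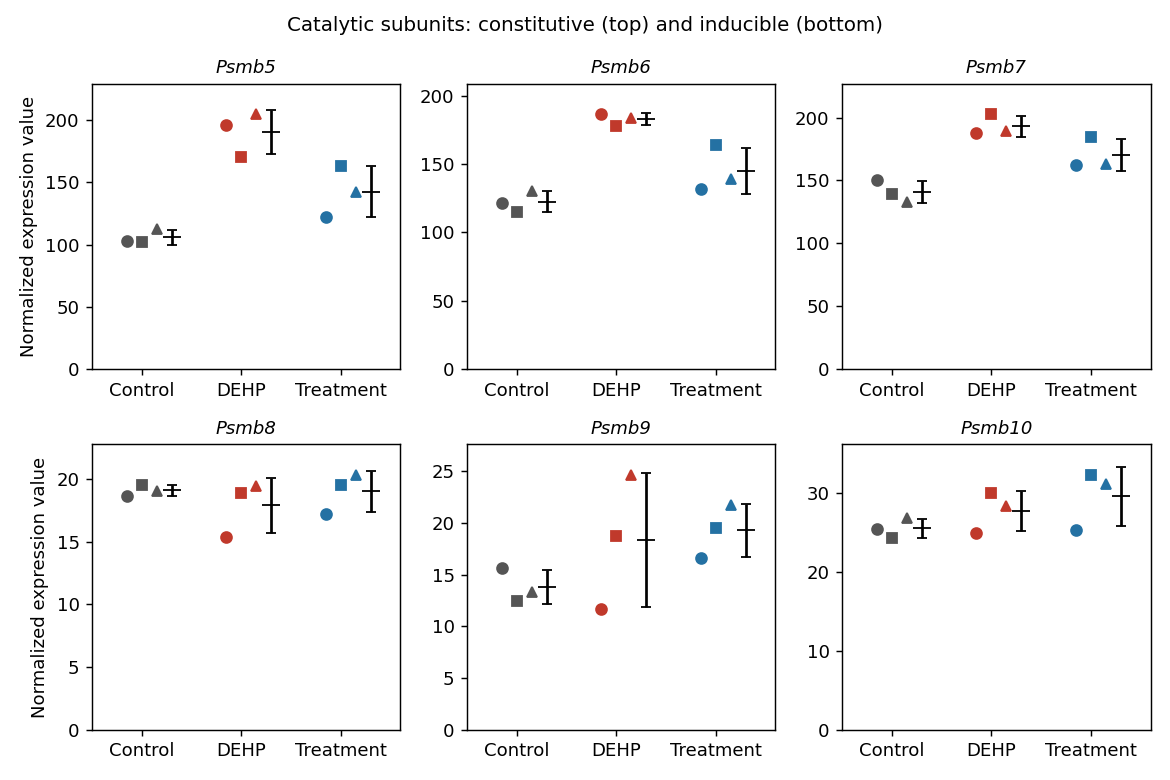
Normalized expression value (vertical axis, from 0) of the 3 constitutive and the 3 inducible catalytic subunits in each library; circle, square and triangle are replicates 1, 2 and 3, and black marks give the mean and SD (n = 3). For Psmb5, Psmb6 and Psmb7 the DEHP libraries lie above all others, while for Psmb8, Psmb9 and Psmb10 they overlap with both other groups.

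A ratio within a library does not depend on how that library was scaled, but its level rests on how the table treats transcript length, so it is compared between groups only. Psmb8 stood at 18.1% ± 1.13 of Psmb5 in Control, 9.46% ± 1.60 in DEHP and 13.4% ± 1.29 in Treatment libraries (SD, n = 3). The libraries of the 3 groups did not overlap in this ratio. Each of the 3 comparisons had an exact two-sided permutation p of 0.1, the smallest that 3 against 3 libraries allow, and 0.18 adjusted over the 9 ratio tests.

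Psmb10 stood at 18.1% ± 1.72 of Psmb7 in Control, 14.3% ± 0.908 in DEHP and 17.4% ± 1.74 in Treatment libraries (SD, n = 3). DEHP did not overlap with either other group (exact permutation p = 0.1 for each, 0.18 adjusted), whereas Treatment and Control overlapped (exact permutation p = 0.7). Psmb9 stood at 11.3% ± 1.38 of Psmb6 in Control, 10.1% ± 3.58 in DEHP and 13.4% ± 1.98 in Treatment libraries (SD, n = 3). In that pair all groups overlapped, with an exact permutation p of 0.8 for DEHP against Control. Without DEHP replicate 1 the sign of that difference turned, from -0.23 to 0.079 on the log2 scale.

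**Figure D3:**
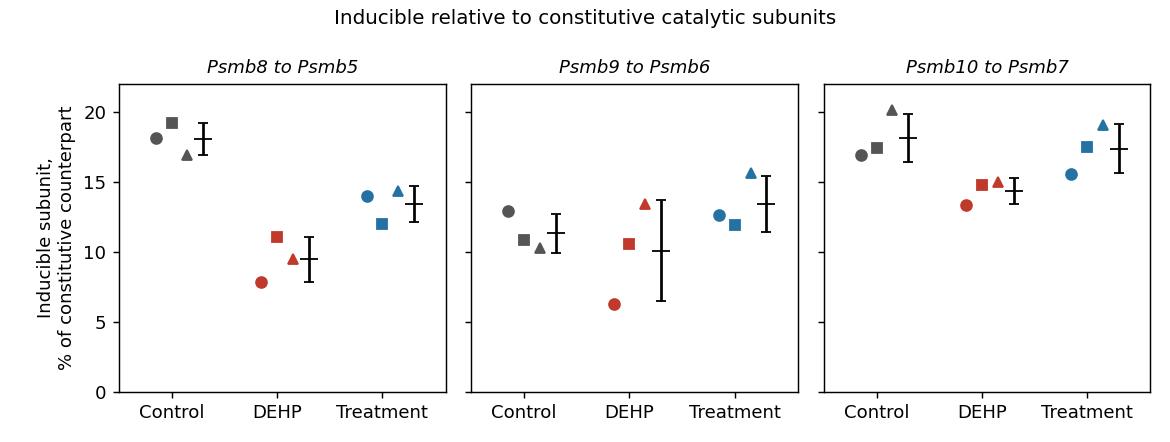
Value of each inducible catalytic subunit as a percent of its constitutive counterpart in every library (vertical axis, from 0); circle, square and triangle are replicates 1, 2 and 3, and black marks give the mean and SD (n = 3). Psmb8 to Psmb5 is 18.1% in Control and 9.46% in DEHP without overlap, Psmb10 to Psmb7 18.1% and 14.3%, and Psmb9 to Psmb6 overlaps between all groups.

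Promoters are shown for the catalytic pairs with an entry for both genes, for Psmd4, which had the largest rise, and for the activator Psme1. These genes and the motifs were chosen after the values were seen. Sequences are RefSeq's on GRCm38.p6, from 250 bases before to 50 after the start, written in the direction of the gene. Capitals mark TGACNNNGC, the core of the antioxidant response element, an interferon-stimulated response element (GAAA and GAAA, 2 bases apart), and CCAAT, each searched on both strands.
Psmb5, chr14:54617946-54618245, minus strand: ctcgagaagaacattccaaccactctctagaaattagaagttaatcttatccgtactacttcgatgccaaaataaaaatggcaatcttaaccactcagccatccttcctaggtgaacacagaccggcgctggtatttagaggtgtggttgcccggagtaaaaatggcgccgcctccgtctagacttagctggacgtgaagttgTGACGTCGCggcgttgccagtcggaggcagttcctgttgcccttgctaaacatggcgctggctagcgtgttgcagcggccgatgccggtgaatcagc
Psmb8, chr17:34197945-34198244, plus strand: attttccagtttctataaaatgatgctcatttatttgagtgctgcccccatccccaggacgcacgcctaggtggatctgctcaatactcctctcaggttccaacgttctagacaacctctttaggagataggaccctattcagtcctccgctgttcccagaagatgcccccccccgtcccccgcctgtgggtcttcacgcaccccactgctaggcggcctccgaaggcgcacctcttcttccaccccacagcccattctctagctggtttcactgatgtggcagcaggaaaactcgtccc
Psmb6, chr11:70525107-70525406, plus strand: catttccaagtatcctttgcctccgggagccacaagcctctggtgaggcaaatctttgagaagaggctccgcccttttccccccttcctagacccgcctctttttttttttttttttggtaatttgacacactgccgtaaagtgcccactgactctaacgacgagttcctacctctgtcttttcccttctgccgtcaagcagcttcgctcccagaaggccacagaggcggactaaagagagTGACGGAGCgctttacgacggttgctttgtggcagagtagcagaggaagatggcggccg
Psmb9, chr17:34187281-34187580, minus strand: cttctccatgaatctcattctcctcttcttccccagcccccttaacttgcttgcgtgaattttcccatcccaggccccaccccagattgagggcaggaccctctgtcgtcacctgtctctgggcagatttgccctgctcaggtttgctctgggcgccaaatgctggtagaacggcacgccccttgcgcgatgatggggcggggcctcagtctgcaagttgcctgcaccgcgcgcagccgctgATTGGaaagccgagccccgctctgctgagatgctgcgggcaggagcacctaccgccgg
Psmd4, chr3:95042565-95042864, minus strand: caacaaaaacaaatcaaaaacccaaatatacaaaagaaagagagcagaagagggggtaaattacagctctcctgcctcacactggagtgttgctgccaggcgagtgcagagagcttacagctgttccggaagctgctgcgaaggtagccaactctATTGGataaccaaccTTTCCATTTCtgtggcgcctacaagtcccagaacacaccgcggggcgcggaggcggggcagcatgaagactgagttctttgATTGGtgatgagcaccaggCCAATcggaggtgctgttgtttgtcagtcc
Psme1, chr14:55578244-55578543, plus strand: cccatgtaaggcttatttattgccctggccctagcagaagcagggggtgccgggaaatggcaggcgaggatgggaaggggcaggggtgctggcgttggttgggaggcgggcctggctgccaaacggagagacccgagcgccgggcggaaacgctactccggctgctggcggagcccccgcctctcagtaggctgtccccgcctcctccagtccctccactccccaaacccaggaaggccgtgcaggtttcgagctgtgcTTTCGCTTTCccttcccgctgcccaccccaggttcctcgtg
Psmb5 and Psmb6 each held TGACNNNGC, 47 and 9 bases before the start, and the Psmb8 window held none of these letters. Psmb9 held CCAAT, and Psmd4 held the interferon-stimulated response element together with 3 copies of CCAAT, which did not overlap each other. Psme1 held that element just after its start.

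Of the 47 genes, 40 had a promoter in the RefSeq table. TGACNNNGC was present in 6 of the 40 (15%), against 12.4% of all 32851 promoters of that length. The interferon-stimulated response element was present in 5 of the 40 (12.5%) against 3.44%, and CCAAT in 14 (35%) against 37.4%. GGGCGG, the GC box, also searched on both strands, was present in 24 (60%) against 35.7%. Each member counted once, with a hit in any of its promoters. The background counted every promoter and was not limited to genes tested here, so the shares are not matched. Among genes that rose, TGACNNNGC was present in 4 of 32 promoters, and among those that did not pass it was present in 2 of 8. The interferon-stimulated response element was present in 3 of 32 and 2 of 8.

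All 7 alpha ring genes, Psma1 to Psma7, rose under DEHP, with log2 fold changes between 0.53 for Psma2 and 0.84 for Psma5. Psma6 had the smallest adjusted p of the class. It was at 96.68, 96.89 and 90.33 in Control, at 145.88, 140.71 and 140.92 in DEHP, and at 110.4, 124.37 and 115.64 in Treatment libraries. The 3 groups did not overlap, and it rose 1.51-fold (log2 fold change 0.59, SE 0.072, limma adjusted p = 0.000624). Psma7 was at 93.77, 93.13 and 92.34 in Control, at 152.17, 148.81 and 147.87 in DEHP, and at 102.33, 131.02 and 121.78 in Treatment libraries, and rose 1.61-fold. Psma8, a subunit of male germ cells, was below the filter at 0.22 to 0.64.

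The structural beta subunits Psmb1, Psmb2, Psmb3 and Psmb4 all rose, by 0.48 to 0.66 on the log2 scale. Psmb3 had the highest Control mean of all members in the units of the table. It was at 179.98, 180.78 and 187.73 in Control, at 296.03, 269.15 and 302.13 in DEHP, and at 187.81, 256.8 and 221.56 in Treatment libraries, and rose 1.58-fold. Psmb4 was at 145.1, 154.65 and 156.52 in Control, at 247.99, 225.63 and 235.23 in DEHP, and at 161.93, 222.13 and 188.03 in Treatment libraries, and rose 1.55-fold. In both genes the Treatment libraries spread widely, with replicate 1 near the Control level. With the lone control both calls were lost (limma adjusted p = 0.0717 and 0.0771). Psmb11, the catalytic subunit of thymic epithelium, was listed at 0 in 8 libraries and at 0.02 in Control replicate 2.

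The 6 ATPases of the base, Psmc1 to Psmc6, form the ring that unfolds substrates. All rose under DEHP, by 0.33 (Psmc5) to 0.51 (Psmc4) on the log2 scale. Psmc1 was at 70.36, 70.46 and 65.01 in Control, at 93.39, 89 and 93.41 in DEHP, and at 85.8, 91.76 and 80.6 in Treatment libraries, a 1.34-fold rise under DEHP. Psmc3 was at 68.49, 69.78 and 61.33 in Control, at 89.15, 85.82 and 93.98 in DEHP, and at 71.94, 78.22 and 75.25 in Treatment libraries, a 1.35-fold rise. Treatment libraries lay nearer to DEHP for Psmc1 and nearer to Control for Psmc3. Without the Mup genes in the scaling neither call was kept (limma adjusted p = 0.0759 and 0.0658).

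Psmd4, a ubiquitin receptor of the regulatory particle, had the largest log2 fold change of the 47 genes, 0.85 (SE 0.10, limma adjusted p = 0.000548). It was at 72.91, 74.53 and 66.62 in Control, at 149.2, 111.89 and 129.64 in DEHP, and at 90.32, 92.32 and 93.18 in Treatment libraries. The groups did not overlap, and the mean rose 1.83-fold. Psmd1, a scaffold of the base, was at 34.6, 35.47 and 31.9 in Control, at 56.6, 44.08 and 51.22 in DEHP, and at 40.41, 43.3 and 41.27 in Treatment libraries. It rose 1.49-fold, and the scaffold Psmd2 rose 1.34-fold.

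All 8 lid genes rose, from 0.28 for Psmd8 to 0.67 for Psmd14 on the log2 scale. Psmd14, the deubiquitinase that removes the ubiquitin chain, was at 27.24, 28.54 and 26.22 in Control, at 46.83, 37.57 and 48.44 in DEHP, and at 34.81, 37.46 and 33.25 in Treatment libraries. It rose 1.62-fold. Psmd11, a lid subunit with a scaffolding role, was at 36.96, 41.9 and 39.61 in Control, at 64.12, 55.14 and 58.46 in DEHP, and at 46.39, 48.15 and 45.58 in Treatment libraries, and rose 1.50-fold. Neither gene had overlapping groups. Psmd3, Psmd6, Psmd7, Psmd12 and Psmd13 rose by between 0.35 and 0.50.

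The assembly chaperones were divided. Of the chaperones of the base, Psmd5 was at 16.78, 17.28 and 14.63 in Control, at 29.98, 23.85 and 22.94 in DEHP, and at 19.35, 22.3 and 19.27 in Treatment libraries, and rose 1.58-fold. Psmd9 was at 15.07, 15.03 and 14.76 in Control, at 16.54, 19.02 and 17.28 in DEHP, and at 18.16, 18.17 and 19.48 in Treatment libraries. The DEHP libraries of Psmd9 were above Control without overlap, yet its log2 fold change of 0.22 (SE 0.074) narrowly missed the threshold (limma adjusted p = 0.0508). Psmd10, also known as the oncoprotein gankyrin, had overlapping groups between 4.91 and 7.47 and did not pass.

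Of the chaperones of the core, Psmg3 was at 9.41, 9.95 and 11.04 in Control, at 17.39, 15.86 and 18.04 in DEHP, and at 12.36, 13.78 and 12.45 in Treatment libraries, and rose 1.69-fold (log2 fold change 0.70, SE 0.086, limma adjusted p = 0.000606). Psmg1 was at 19.71, 19.19 and 18.98 in Control, at 27.74, 24.67 and 28.08 in DEHP, and at 22.4, 24.71 and 24.83 in Treatment libraries, and rose 1.39-fold, a call lost with the lone control (limma adjusted p = 0.0534). In Psmg3 the 3 groups did not overlap, and in Psmg1 the Treatment libraries reached the lowest DEHP library. The other chaperones, Psmg2 and Psmg4, had log2 fold changes of 0.25 (SE 0.12) and 0.31 (SE 0.11) and did not pass.

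Of the 4 activators, 2 rose. These were Psme1 and Psme2, which form the interferon-inducible cap that opens the core for peptides. Psme1 was at 130.39, 120.44 and 132.81 in Control, at 213.96, 193.58 and 222.04 in DEHP, and at 135.32, 191.96 and 185.4 in Treatment libraries. Psme2 was at 91.65, 96.3 and 92.9 in Control, at 132.15, 129.67 and 139.76 in DEHP, and at 100.51, 124.06 and 107.21 in Treatment libraries. In both genes every DEHP library was above every Treatment library, and Treatment replicate 1 was nearest to Control.

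Psme1 rose 1.64-fold (log2 fold change 0.71, SE 0.13, limma adjusted p = 0.00311) and Psme2 1.43-fold (0.51, SE 0.086, adjusted p = 0.00246). With the lone control these calls were lost (limma adjusted p = 0.0858 and 0.0612). Psme2b, a close copy of Psme2, was below the filter at 0.29 to 0.59, and no source used here states how reads were split between the copies.

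Psme3, a nuclear activator, was at 26.17, 27.2 and 25.69 in Control, at 29.3, 26.77 and 28.22 in DEHP, and at 25.45, 26.27 and 25.53 in Treatment libraries. Psme4, a large activator with a role in DNA repair and sperm development, was at 14.95, 14.67 and 12.65 in Control, at 16.53, 15.87 and 14.41 in DEHP, and at 15.64, 15.55 and 15.26 in Treatment libraries. Control and DEHP overlapped in both, and neither passed, with log2 fold changes of 0.089 (SE 0.066) and 0.14 (SE 0.084). Both turned below 0 with quantile normalization and with the Mup genes left out of the scaling, and Psme3 also after centring on the median gene or on coding length.

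Psmf1, which inhibits the core in vitro, was at 9.9, 10.49 and 8.67 in Control, at 13.11, 12.37 and 14.16 in DEHP, and at 12.79, 12.14 and 10.86 in Treatment libraries. It rose 1.36-fold under DEHP (log2 fold change 0.41, SE 0.094), a call lost without the Mup genes in the scaling (limma adjusted p = 0.149). Psme3ip1 was at 10.94, 11.83 and 11.94 in Control, at 15.34, 13.19 and 13.88 in DEHP, and at 13.53, 14.08 and 12.41 in Treatment libraries. It also rose, by 0.27 (SE 0.083, limma adjusted p = 0.0384), a call lost in 13 of 16 other settings. Psmc3ip, which acts in meiotic recombination and matches the symbol pattern by name, was below the filter at 0 to 0.38.

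**Figure D4:**
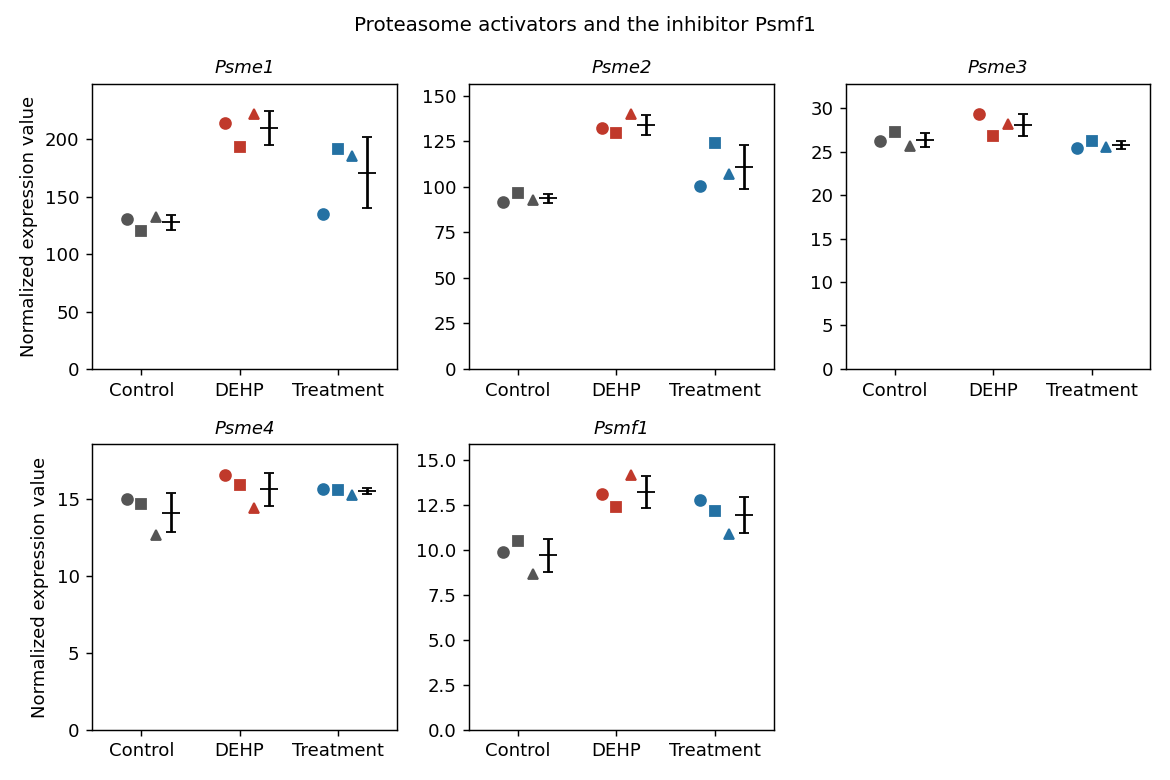
Normalized expression value (vertical axis, from 0) of the activators Psme1 to Psme4 and the inhibitor Psmf1 in each library; circle, square and triangle are replicates 1, 2 and 3, and black marks give the mean and SD (n = 3). Psme1 and Psme2 are 1.64-fold and 1.43-fold higher in DEHP than in Control, while Psme3 and Psme4 overlap between these groups.

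All 9 members that did not pass had a Control mean below 30, from 6.12 for Psmd10 to 26.4 for Psme3, whereas 6 of the 38 that rose did, among them Psmf1, Psmg3 and Psmd14. Across the 47 genes, which are not independent replicates and share all libraries, the Spearman correlation of Control mean and log2 fold change was 0.523. Proteasome genes were also short, with a median coding length of 816 bases against 1341 over all genes tested (GENCODE M21). Across the 10158 genes with a length, which are not independent replicates, the Spearman correlation of coding length and log2 fold change under DEHP was -0.284. After each library was centred on its trend against coding length, 30 of the 46 members with a length rose and 0 fell, against 9.18% and 7.53% of all genes.

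Of 20 partners of the proteasome whose symbols do not match the pattern, 10 rose and 0 fell, beside the 21.6% and 3.91% of all genes. Adrm1, a ubiquitin receptor of the regulatory particle, was at 69.25, 75.89 and 71.22 in Control, at 114.78, 99.9 and 107.21 in DEHP, and at 84.13, 88.23 and 83.01 in Treatment libraries. The groups did not overlap, and it rose 1.49-fold (log2 fold change 0.57, SE 0.076, limma adjusted p = 0.000946). Pomp, the maturation chaperone of the core, rose 1.57-fold and Txnl1, a thioredoxin-like protein bound to the regulatory particle, 1.35-fold. Txnl1 lost its call without the Mup genes (limma adjusted p = 0.0679), with the lone control (adjusted p = 0.0603) and with quantile normalization. Of 16 genes of ubiquitin and its activation, 8 rose and 0 fell, beside the same shares of all genes, with the conjugating enzymes Cdc34 and Ube2k at 1.52-fold and 1.37-fold. Ube2k lost its call without the Mup genes (limma adjusted p = 0.116), with the lone control (adjusted p = 0.0749) and after centring on coding length.

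Among 12 transcription regulators of proteasome genes, 2 rose and 0 fell, beside the 21.6% and 3.91% of all genes. At an unadjusted limma p below 0.05, 5 of the 12 were higher and 0 lower, against 31.4% and 6.6% of all genes. The 2 that rose were Mafk, a partner of the factors Nfe2l1 and Nfe2l2, 1.47-fold, and Nfyb, a subunit of the CCAAT-binding factor, 1.48-fold. Without the Mup genes neither passed (limma adjusted p = 0.0565 for Mafk and 0.110 for Nfyb). Mafk also lost its call after centring on coding length, and Nfyb in 7 of 17 settings, among them the lone control (adjusted p = 0.119) and leaving out Control replicate 3. Nfe2l1 itself, named outside the rule for named genes, was at 18.44, 23.82 and 16.91 in Control and at 24.95, 22.24 and 27.18 in DEHP libraries. These overlapped, and it did not pass (limma adjusted p = 0.0817).

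Of 15 antigen presentation genes, 3 rose and 0 fell, and of 22 interferon response genes 3 rose and 0 fell, beside the 21.6% of all genes that rose. Above 0 were 9 of the 15 and 12 of the 22, with median log2 fold changes of 0.029 and 0.069, against 0.12 over all genes. Without overlap 4 and 5 were higher, beside 33.8% of all genes. H2-Q7 and Gbp7 were lower without overlap, beside 7.65% of all genes, and neither passed. The 3 of antigen presentation that rose were the peptide-loading factor Tapbp, 1.33-fold, and the class I heavy chains H2-D1, 1.31-fold, and H2-K1, 1.21-fold. Without the Mup genes none of the 3 passed (limma adjusted p = 0.104 for Tapbp, 0.201 for H2-D1 and 0.575 for H2-K1), nor with the lone control (adjusted p = 0.0884, 0.158 and 0.237). H2-D1 lost its call in 7 and H2-K1 in 8 of 17 settings, both among others without Control replicate 1 or DEHP replicate 3, and H2-K1 also without Control replicate 2. Reads of class I genes may be split between near-identical copies. The interferon genes that rose were Ifi47 and Irgm1, which encode GTPases, at 1.74-fold and 1.28-fold, and Bst2, an antiviral membrane protein, at 1.50-fold. Ifi47 was called higher in all 17 other settings. Irgm1 lost its call in 11 of 17, among them without the Mup genes (limma adjusted p = 0.390), with the lone control (adjusted p = 0.193) and without any 1 library of the 6 other than DEHP replicate 2. Bst2 lost it with the lone control (limma adjusted p = 0.117), with quantile normalization and after centring on coding length. Tap1 and Tap2, the peptide transporter genes that neighbour Psmb8 and Psmb9 on mouse chromosome 17, are named outside the rule. Tap1 was at 5.5, 4.87 and 4.94 in Control and at 5.97, 4.34 and 5.47 in DEHP libraries, and Tap2 at 7.07, 7.13 and 6.16 and at 5.43, 6.68 and 8.04. Both overlapped between the groups.

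Markers of cells rich in inducible subunits were also followed. The 14 macrophage and Kupffer cell markers summed to 184.03 to 230.31 in Control, 226.59 to 349.16 in DEHP and 207.48 to 348.98 in Treatment libraries. Under DEHP 1 of the 14 rose, beside 21.6% of all genes, and 8 were higher without overlap, beside 33.8%. Above 0 were 13 of the 14, beside 7259 of all 10388 genes. Their median log2 fold change was 0.41, against 0.12 over all genes. At an unadjusted limma p below 0.05, 5 of the 14 were higher and 0 lower, against 31.4% and 6.6% of all genes. DEHP replicate 1 held the highest macrophage sum (349.16), and the lowest Psmb8 and Psmb9. Treatment replicate 2 had nearly the same sum (348.98), with Psmb8 at 19.54, Psmb9 at 19.53 and the highest Psmb10 of all libraries (32.25). Of 20 lymphocyte and leukocyte markers 6 were tested and 0 called, and their sums overlapped between the groups, at 74.07 to 101.34 in Control and 58.3 to 126.86 in DEHP libraries. The T cell gene Cd3e was at 0.05 to 0.22 in all libraries. Of 12 endothelial markers 0 were called, and of 5 tested red blood cell markers 0. Over all genes tested, 21.6% rose and 3.91% fell. At an unadjusted limma p below 0.05, 0 lymphocyte and 0 endothelial markers differed, and 2 red blood cell markers were lower. The part of cell composition in these results was not tested.

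The second comparison set the group with added polyphenols against DEHP alone. It shares the DEHP libraries with the first comparison, where they entered with the opposite sign, so these comparisons are not independent. No member passed, and limma called 0% of all genes. The values themselves leaned to lower levels. The median log2 fold change over the members was -0.25, against -0.013 over all genes. At an unadjusted p below 0.05, 32 of 47 members were lower and 0 higher, against 8.82% and 5.85% of all genes. The Treatment libraries were below all DEHP libraries for 32 members and above them for 0, against 10.4% and 8.89% of all genes.

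Psmd4 had the fold change farthest below 0, at -0.49 (SE 0.10, limma adjusted p = 0.117), and without DEHP replicate 2 it was the 1 member called lower (limma adjusted p = 0.0324). Psmb5 was at -0.42 (SE 0.11, limma adjusted p = 0.149), Psma7 at -0.34 (SE 0.090, adjusted p = 0.147) and Psmb3 at -0.39 (SE 0.11, adjusted p = 0.157). The alpha ring had 7 of 7 members without overlap, the constitutive catalytic subunits 3 of 3 and the lid 6 of 8. Of the inducible subunits Psmb8, Psmb9 and Psmb10, 0 of 3 were without overlap, and all 3 had a mean above that of DEHP. Psmd9 was the other member above 0. With library totals set equal, 11 members rather than 32 were lower at an unadjusted p below 0.05, and the median was -0.17. With the Mup genes left out of the scaling, 11 were lower and 2 higher at that threshold. The median was then -0.13, against 0.090 over all genes. With quantile normalization 21 were lower and 0 higher, with a median of -0.18 against 0.0025 over all genes.

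Treatment libraries were not alike. Over the 46 members other than Psme3ip1, the median deviation from the Control mean was 0.19, 0.36 and 0.23 on the log2 scale in Treatment replicates 1, 2 and 3, against 0.53, 0.37 and 0.51 in DEHP replicates 1, 2 and 3. Thus Treatment replicate 2 came close to DEHP replicate 2. Treatment replicate 1 held the lowest value of its group for 35 of the 46 genes and Treatment replicate 2 the highest for 33. DEHP replicate 2 held the lowest value of its group for 36. The summed value of the 46 genes was 3188, 3760 and 3449 in Treatment, 4325, 3944 and 4290 in DEHP, and 2916, 2865 and 2795 in Control libraries. The Mup share was highest within Treatment in replicate 1 (11.6%) and within DEHP in replicate 2 (8.49%). Within each of these groups, the proteasome sum was lowest in that library. Control went the other way, with the highest Mup share (20.3%) and the highest sum (2916) both in replicate 1. The part of the Mup share in these differences was not tested.

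**Figure D5:**
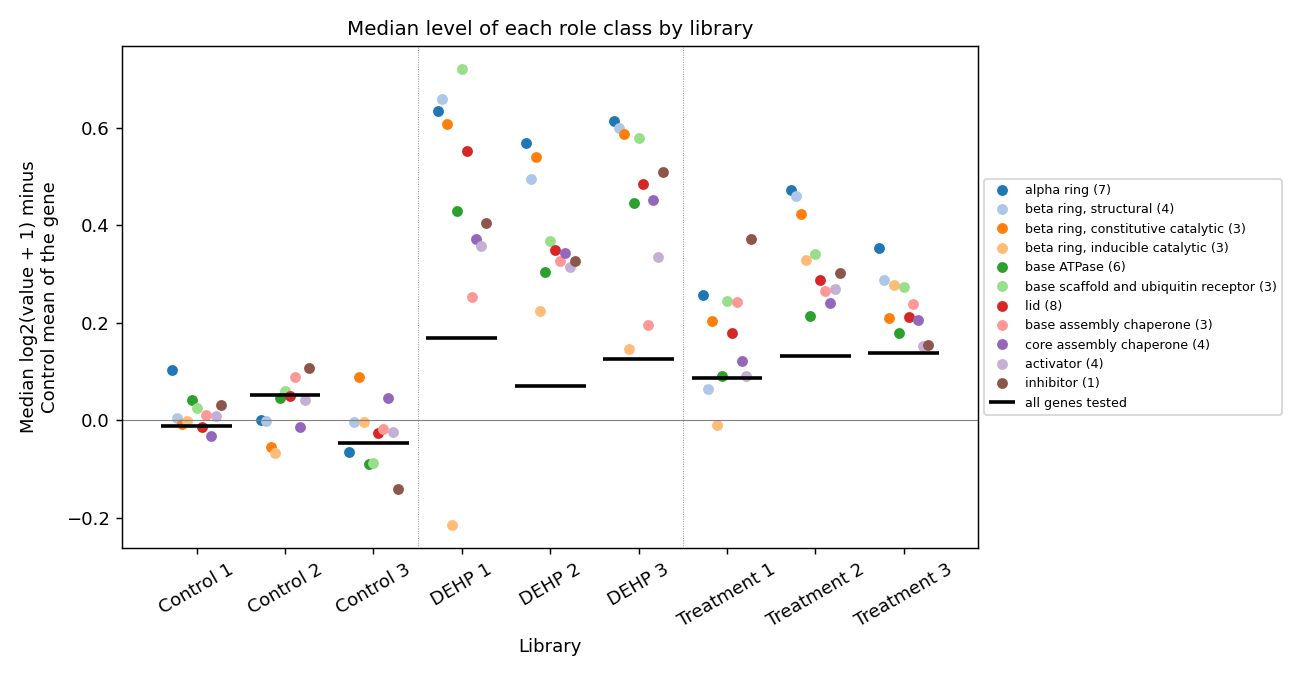
Median over the members of each role class of log2(value + 1) minus the gene's Control mean (vertical axis) in each library (horizontal axis), with the number of genes in parentheses; black lines give the median over all genes tested. DEHP replicate 2 and Treatment replicate 2 lie close together, and the inducible catalytic class is the lowest in each DEHP library and lowest in DEHP replicate 1.

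The third comparison set Treatment against Control. It shares the Control libraries with the first comparison. Of the 47 members 14 rose and 0 fell, against 9.68% and 0.76% of all genes, and the median was 0.27 against 0.11. The 14 were Psma1, Psma3, Psma5, Psma6, Psma7, Psmb1, Psmb5, Psmc1, Psmd2, Psmd4, Psmd9, Psmd14, Psmg1 and Psmg3. Libraries did not overlap for 36 members, all higher, where 31.8% of all genes were higher and 4.29% lower without overlap.

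Psmb5 was 1.35-fold higher (log2 fold change 0.42, SE 0.11, limma adjusted p = 0.0426), Psma6 1.23-fold (0.30, SE 0.072, adjusted p = 0.0313) and Psmd4 1.29-fold (0.36, SE 0.10, adjusted p = 0.0482). Psmd9, which had not passed under DEHP alone, passed here. Of the 3 inducible subunits 0 passed. Psmb9 had the largest log2 fold change of the 47 genes here, 0.45 (SE 0.23, limma adjusted p = 0.231), and its Treatment libraries were all above Control. Psmb8 and Psmb10 overlapped, with log2 fold changes of -0.0079 (SE 0.098) and 0.20 (SE 0.10). That the DEHP and Treatment effects differ was not shown, since the test of that difference is Treatment against DEHP, in which no member passed. Of the activators, 0 of 4 passed, with Psme1 at 0.40 (SE 0.13, limma adjusted p = 0.0677).

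The count of 14 fell whenever 1 library was left out, and the share of all genes that rose mostly fell too. Without Control replicate 2, Control replicate 3 or Treatment replicate 2 it was 0, beside 4.2%, 2.08% and 2.16% of all genes. Without Control replicate 1 or Treatment replicate 3 it was 1, beside 2.36% and 3.11%. Without Treatment replicate 1 it was 13, beside 9.93%. In these fits the median log2 fold change over members stayed between 0.22 and 0.30. With quantile normalization, centring on the median gene or the Mup genes left out, 0 members passed, beside 1.66%, 1.73% and 2.88% of all genes. With equal totals 28 members passed, while over all genes the share that rose went from 9.68% to 18.8%. With the lone control the median over members was 0.31, against 0.17 over all genes.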

How the data were processed

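Libraries held poly(A)-selected RNA, copied from random primers, per the labels' protocols. The submitters' processing notes name build mm9, CASAVA 1.7 and limma without roles. The authors deposited a normalized expression signal for each symbol in each library; no source used here states the aligner, counting or scaling. Read depth is unknown, so no counting interval is given. Groups and replicate numbers came from sample titles. Values were analysed as log2(value + 1) for genes that reached 1 in 3 or more libraries. A limma model (3.58.1, R 4.3.3, with trend and robust estimates) was fitted to all 9 libraries, and p-values were adjusted over all 10388 genes by the Benjamini-Hochberg method. The code was tested on simulated data. Ratios of catalytic subunits were compared by exact permutation. Members, roles and lists were chosen with earlier results of these data known. Named genes were the catalytic subunits, activators and inhibitor, the 2 members of each other role with the smallest p under DEHP, members moving against their role, and up to 3 called genes of each other list, of which 1 is not reported here. Sensitivity of members that did not pass under DEHP, and of genes of other lists, was computed for DEHP against Control alone, a limit set after values were seen. No 2 of the libraries held identical values. Alternatives were other scalings, filters, pseudocounts and variance models, a replicate block, and left-out libraries. The planned trend against protein length was run with coding length, chosen after seeing the data. All 47 members matched a RefSeq gene of GRCm38.p6 by symbol.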

Additional observations from a re-analysis of the deposited data

How the results depend on the processing

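For DEHP against Control, the count of members that rose (38) was 18 with quantile normalization, 23 with equal totals without the Mup genes (where 1 member fell), 24 without Control replicates 1 and 2, and 35 to 38 when 1 library was left out. Other settings gave 30 to 38. The share of all genes that rose was 8.88% with quantile normalization and 7.71% without the Mup genes. It was 14.2 to 19.8% when 1 library was left out and 9.18 to 21.8% in the other settings. For Treatment against Control, the count of 14 was 0 with quantile normalization, centring on the median gene, equal totals without the Mup genes or centring on coding length. The shares of all genes that rose there were 1.66%, 1.73%, 2.88% and 1.8%. The count was 28 with equal totals, beside 18.8% of all genes, and 4 with no filter, beside 2.68%. It was 6 without trend and robust estimates, beside 7.97%, and 1 with the replicate block, beside 5.11%. When 1 library was left out it was 0 to 13, beside 2.08 to 9.93% of all genes. Without Control replicates 1 and 2 the median log2 fold change over members was 0.31. Deviations from group means correlated over 0.1 in 1 of 9 same-numbered pairs of libraries, with a range of -0.263 to 0.170. Among 18 differently numbered pairs 4 did, with a range of -0.139 to 0.258. With 3 libraries per group these values cannot decide whether the numbers pair the samples. With the replicate block the counts under DEHP were 37 higher and 0 lower, beside 18.7% and 3.12% of all genes. For Treatment against DEHP, 0 to 1 members were lower when 1 library was left out, and 0 in the other settings. At most 0.501% of all genes were called lower in any of these fits.

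Signs turned for values that had not passed. Under DEHP, Psmb10 was at -0.087 with quantile normalization, -0.094 without the Mup genes and -0.081 after centring on coding length. Psme3 was at -0.11, -0.12 and -0.12 in these and at -0.025 after centring on the median gene. Psme4 was at -0.029 with quantile normalization and -0.063 without the Mup genes, Psmd9 at -0.0023 after centring on coding length, and Psmb8 ranged from -0.15 to 0.0058 when 1 library was left out. In Treatment against DEHP, without the Mup genes, Psmc1 was at 0.030 and Psme3ip1 at 0.041. When 1 library was left out, the log2 ratio of Psmb9 to Psmb6 ranged from -0.47 to 0.079 in DEHP against Control, and that of Psmb10 to Psmb7 from -0.13 to 0.013 in Treatment against Control. The cause was not tested. Of 1418 alternative values of named genes and ratios, 16 turned sign, 184 lost a call and 18 gained one. Unknown depth limits what can be said of genes with low values.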
